A study of Mus musculus with 6 samples.

Results

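The genes described are 10 of glucose breakdown and its red-cell branch: Bpgm, Hk1, Hk2, Pfkm, Pfkl, Gpi1, Pgk1, Pkm, Pklr and Ldha. A gene was measured by the array row that the platform annotation assigns to its symbol alone, taking the brightest such row by the mean over all arrays. That gave 1 row for each of 9 of the 10 genes, out of 21506 genes tested, and Gpi1 was not analysed here. Expression was read in total RNA of the left ventricle of 3 sickle and 3 control mice, each on 1 Affymetrix GeneChip (Mouse Gene 2.0 ST), giving 6 arrays. The sickle mice were homozygous for Hbbtm2(HBG1,HBB*)Tow, an allele that puts human gamma-globin and sickle beta-globin at the mouse beta-globin locus. The control mice carried Hbbtm3(HBG1,HBB)Tow on both chromosomes, the matching allele whose human beta-globin does not sickle. Both groups carried Hbatm1(HBA)Tow, which puts human alpha-globin in place of the mouse gene, so the controls are humanised mice and not wild type. All mice were males of 10 to 14 weeks on a mixed B6;129 background. The labels' protocol gives 3 mice in each group and the titles number the arrays within a group, and nothing further on litter or day was given in the sources used here.

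Glycolysis splits glucose into pyruvate and makes ATP. The working heart draws mainly on fatty acids but keeps the pathway for glucose and glycogen, while the mature red cell, which has no mitochondria, depends on it. Several steps exist in forms encoded by separate genes, with one form typical of muscle and another of red cells or liver. Red cells also divert an intermediate through bisphosphoglycerate mutase, encoded by Bpgm, to 2,3-bisphosphoglycerate, which binds haemoglobin and lowers its affinity for oxygen. Left ventricular tissue contains blood, so a bulk measurement reads RNA of both the muscle and the cells in its vessels, and in such tissue more cells of a type and more RNA per cell cannot be told apart.

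Among the forms typical of red cells, Bpgm had the highest log2 difference, sickle minus control (1.71 ± 0.12, SE), and Pklr the lowest (-0.11 ± 0.15). The groups overlapped in Pklr, so the promoters printed are those of a gene that rose and of a gene with no clear change. Each sequence is the stretch of 250 bases before the RefSeq transcript start in build GRCm38.p6, on the plus strand, at chr6:34476106-34476355 for Bpgm and, for the more upstream of the 2 starts listed for Pklr, at chr3:89135892-89136141. Capitals mark matches to words searched on both strands. The word AGATAA, the word AGATAG, the word TGATAA and the word TGATAG are recognised by GATA factors, and the word CACACCC is a box of the kind bound by KLF1.
Bpgm: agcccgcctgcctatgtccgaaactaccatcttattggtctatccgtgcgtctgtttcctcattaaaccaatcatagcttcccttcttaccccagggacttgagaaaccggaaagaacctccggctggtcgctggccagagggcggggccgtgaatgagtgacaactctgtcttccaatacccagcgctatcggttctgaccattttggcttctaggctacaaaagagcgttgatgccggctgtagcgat
Pklr: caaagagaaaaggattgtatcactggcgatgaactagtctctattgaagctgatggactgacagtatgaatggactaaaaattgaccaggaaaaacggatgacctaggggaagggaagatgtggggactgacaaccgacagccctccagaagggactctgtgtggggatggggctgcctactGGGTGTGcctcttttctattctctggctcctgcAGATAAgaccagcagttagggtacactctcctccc
The Pklr window held the KLF1 box on the opposite strand, beginning 68 bases before the start, and AGATAA on the printed strand, beginning 35 bases before it, and these did not overlap. The Bpgm window held no match, nor did the second Pklr window. The words did not follow the red-cell and muscle forms: over all listed windows of the 10 genes, Pfkm, Pklr and Pkm held a word of the GATA factors, Hk1, Hk2, Pfkm and Pklr held the KLF1 box, and the other 5 genes, Pfkl among them, held neither. Over 32851 such windows in the RefSeq table, 26.5% held a word of the GATA factors and 6.93% the KLF1 box. Counted by gene, as for the 10 here, the shares were 29.7% and 7.9% of 27025 genes. These shares make no allowance for the number of windows of a gene, which was 4 in Pfkm and 1 in Bpgm. Matches are letters in a window and were not tested as binding sites.

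Bpgm rose in the sickle ventricle. Its log2 value was 10.02, 10.38 and 10.20 in sickle replicates 1, 2 and 3, against 8.50, 8.60 and 8.36 in control replicates 1, 2 and 3. The groups were separated by 1.41 log2 units between the lowest sickle and the highest control array. The mean was 10.20 ± 0.18 in sickle and 8.49 ± 0.12 in control (SD, n = 3 each), a 3.27-fold rise with a 95% interval from 2.68-fold to 3.99-fold (log2 difference 1.71 ± 0.12, SE; limma adjusted p = 0.00491 over all genes). It was the fifth smallest p of all genes tested. Among the 9 measured genes Bpgm was the 1 past the adjustment, where 0.181% of all genes passed in either direction and 0.167% passed higher in sickle. Without control replicate 3, the array in which the atrial genes Sln and Myl7 stood high (Sln at 8.08 and at most 3.36 elsewhere, Myl7 at 7.75 and at most 4.78 elsewhere; both chosen after their values were seen), the difference was 1.65 and missed the threshold (limma adjusted p = 0.0550).

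**Figure D1:**
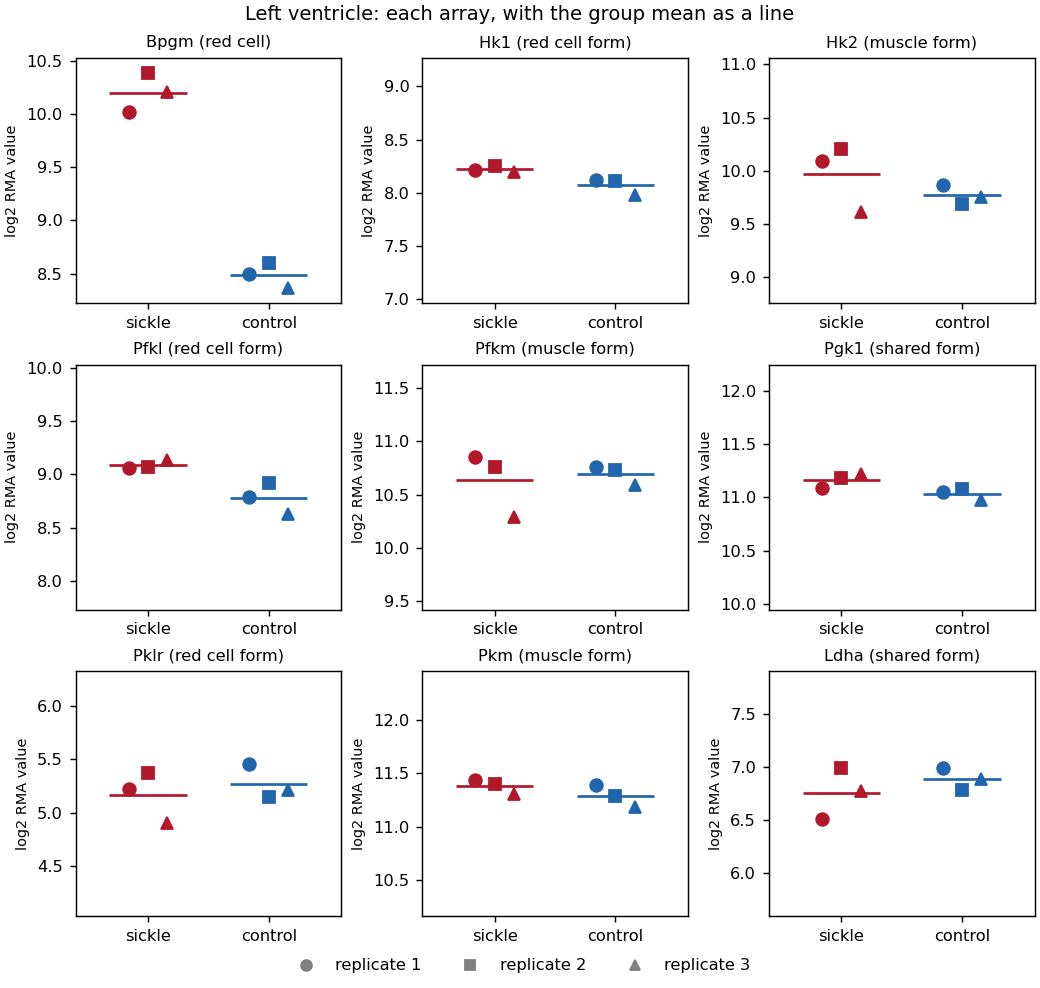
Log2 RMA value (vertical axis, the same span in each panel) of the 9 measured genes in each sickle and control array, with lines at the group means and marker shapes for replicate numbers. The Bpgm values lay between 10.02 and 10.38 in sickle and between 8.36 and 8.60 in control, and the other 8 genes show far smaller shifts.

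Most markers of red cells moved in the direction of Bpgm. Of 14 measured red-cell and reticulocyte markers, 12 were higher and 6 rose past the adjustment, where 48.4% and 0.167% of all genes did so. Gypc and Sptb were lower, by -0.21 ± 0.11 and -0.10 ± 0.09 (log2, SE). The median log2 difference of the list was 0.91 beside -0.01 over all genes. Slc4a1, the band 3 anion exchanger, differed by 3.31 ± 0.30 and Trim10, which takes part in red-cell maturation, by 2.19 ± 0.25 (log2, SE; limma adjusted p = 0.0109 and 0.0287). Relative to the control mean, the median of the list was 0.78, 0.99 and 0.94 in sickle replicates 1, 2 and 3, against -0.02, 0.00 and -0.03 in the control replicates. Bpgm on the same scale was 1.53, 1.89 and 1.71 in the sickle replicates, so replicate 1 was the lowest and replicate 2 the highest in both. The single markers did not all keep that order: replicate 1 was the lowest in all 6 that passed, but the highest was replicate 2 in Slc25a37, Epb42 and Rhag and replicate 3 in Slc4a1, Trim10 and Tspan33. The part of red cells in the Bpgm difference was not tested.

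The genes nearest to Bpgm in pattern were Ube2l6, Prxl2a, Mkrn1, Ube2o and Gda. Likeness was the root mean square difference between values centred on each gene's mean over the 6 arrays, which was 0.10 log2 units for Ube2l6, 0.12 for Prxl2a, 0.15 for Mkrn1 and 0.18 for both Ube2o and Gda. Ube2l6, a conjugating enzyme for ubiquitin-like proteins, had 8.97, 9.38 and 8.96 in the sickle replicates, against 7.46, 7.37 and 7.12 in the control replicates. Prxl2a, a peroxiredoxin-like protein, had 10.20, 10.61 and 10.47 in sickle, against 8.62, 8.52 and 8.57 in control. Mkrn1 is a ubiquitin ligase, Ube2o an enzyme that joins ubiquitin to proteins during reticulocyte remodelling, and Gda a guanine deaminase. In all 5 genes sickle replicate 2 was the highest sickle array, as in Bpgm, which the choice by nearness to Bpgm favours. Being near a gene that rose, these 5 genes also passed the adjustment, with log2 differences from 1.46 to 1.99.

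Hexokinase traps glucose in the cell as glucose 6-phosphate. Hk1, the form of red cells and brain that the heart also holds, had 8.22, 8.25 and 8.20 in the sickle replicates, against 8.12, 8.11 and 7.98 in the control replicates. All 3 sickle values lay above the control values, by 0.08 at the nearest, and the log2 difference of 0.15 ± 0.09 (SE) did not pass (limma adjusted p = 0.657; fold 1.11, 95% interval 0.960 to 1.28). Hk2, the insulin-responsive form of muscle, had 10.09, 10.21 and 9.61 in sickle, against 9.87, 9.69 and 9.76 in control. Sickle replicates 1 and 2 were above every control array and replicate 3 below every one, so the groups overlapped and the difference of 0.20 ± 0.16 did not pass (limma adjusted p = 0.740). Without sickle replicates 1, 2 and 3 in turn the Hk2 difference was 0.14, 0.078 and 0.38 (limma adjusted p = 0.375 for the last). A further row, shared by Hk1 and its antisense gene Hk1os, was left out by the rule and averaged 5.58 ± 0.07 in sickle and 5.67 ± 0.22 in control (SD, n = 3 each).

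Phosphofructokinase commits sugar to glycolysis and is the main control point of the pathway. Pfkl, the liver subunit, which human red cells combine with the muscle subunit, had 9.06, 9.07 and 9.13 in the sickle replicates, against 8.79, 8.92 and 8.63 in the control replicates. The groups did not overlap, with a gap of 0.14, and the log2 difference of 0.31 ± 0.10 (fold 1.24, 95% interval 1.05 to 1.47) had an unadjusted p of 0.0189 and did not pass the adjustment (limma adjusted p = 0.500). Pfkm, the muscle subunit, had 10.86, 10.76 and 10.29 in sickle, against 10.76, 10.73 and 10.59 in control. Sickle replicate 3 was again the lowest array, and the difference was -0.06 ± 0.16 (limma adjusted p = 0.928), turning to 0.11 without that array.

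Pgk1, phosphoglycerate kinase, makes the first ATP of the pathway and takes the same substrate, 1,3-bisphosphoglycerate, that Bpgm diverts. It had 11.09, 11.18 and 11.22 in the sickle replicates, against 11.05, 11.08 and 10.97 in the control replicates. The groups did not overlap but came within 0.01 of each other, and the log2 difference was 0.13 ± 0.09 (limma adjusted p = 0.697).

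Pyruvate kinase makes the last ATP, and its red-cell form is the one lost in inherited pyruvate kinase deficiency. Pklr, the red-cell and liver gene, had 5.22, 5.37 and 4.90 in the sickle replicates, against 5.46, 5.15 and 5.21 in the control replicates. The groups overlapped, every Pklr value lay below the median of all rows on its array (5.50 to 5.54), and the log2 difference was -0.11 ± 0.15 (fold 0.929, 95% interval 0.733 to 1.18; limma adjusted p = 0.856). Without sickle replicate 3 the Pklr difference was 0.03. Pkm, the gene of muscle and most other tissues, had 11.44, 11.40 and 11.31 in sickle, against 11.39, 11.29 and 11.19 in control. These overlapped too, with a difference of 0.09 ± 0.10 (limma adjusted p = 0.798). Ldha, the lactate dehydrogenase subunit that favours making lactate, had 6.51, 6.99 and 6.77 in sickle, against 6.99, 6.78 and 6.89 in control, with overlapping groups and a difference of -0.13 ± 0.14 (limma adjusted p = 0.798). The Ldha difference was -0.0059 without sickle replicate 1, -0.25 without sickle replicate 2 and -0.080 without control replicate 1.

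In all, 6 of the 9 measured genes were higher and 3 lower in sickle by their means, where 48.4% of all genes were higher, and their median log2 difference was 0.13. The sickle values lay wholly above the control values in 4 genes, Bpgm, Pfkl, Hk1 and Pgk1, and wholly below in 0, where 7.61% and 8.36% of all genes did so. The 95% interval of Bpgm, 1.42 to 2.00 on the log2 scale, lay above that of each other gene, of which the highest upper bound was 0.57, in Hk2. Simulated arrays of this design drew noise independently for each gene, with no shift shared by the genes of an array. In them, 38.8% of randomly picked genes changed by 1.5-fold and 67.2% of those changed by 2-fold were called. So 1.5-fold changes were missed more often than called there, and the rate for a single gene can differ. The interval of each of the other 8 genes ends below 1.5-fold.

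**Figure D2:**
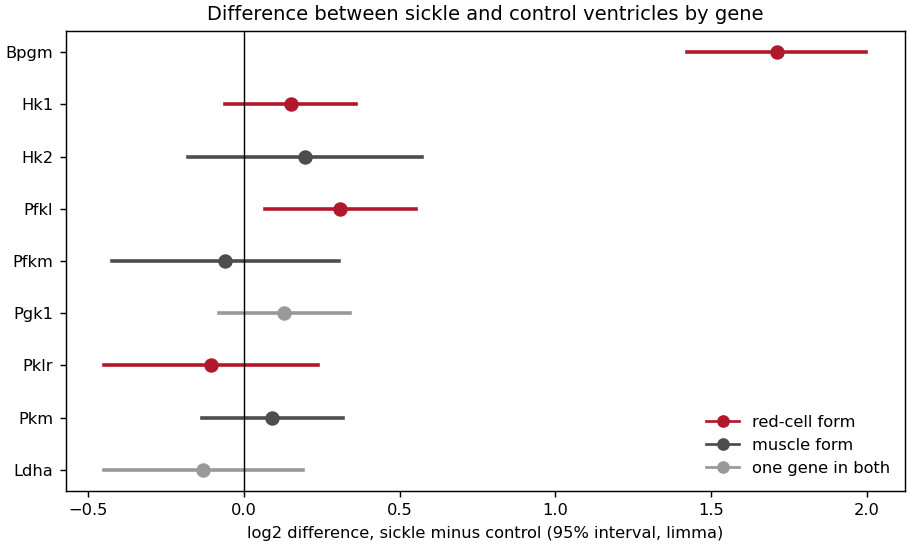
Log2 difference between sickle and control (horizontal axis, sickle minus control; points with 95% limma intervals) for the 9 measured genes, coloured by the form they encode. Bpgm, at 1.71, stands alone, Pfkl at 0.31 has an interval that leaves out 0 without passing the adjustment over all genes, and the others span 0.

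Red-cell forms were set against muscle forms in 3 pairs, a test that no pair could pass, since 3 against 3 arrays allow no p below 0.1. For each pair the value of the red-cell form minus that of the muscle form was taken within each array and compared between groups. This cancels a shift of the whole array, and only the difference between groups was read. The labels are not exclusive, since the heart also holds Hk1 and human red cells also use Pfkm. Hk1 minus Hk2, relative to the control mean, was -0.17, -0.26 and 0.29 in the sickle replicates, against -0.05, 0.12 and -0.08 in the control replicates. Sickle replicates 1 and 2 fell below the control values and replicate 3 above them, with a group difference of -0.05 (exact two-sided permutation p = 0.8). Without sickle replicates 1, 2 and 3 in turn it was 0.017, 0.059 and -0.21. Pklr minus Pkm was -0.20, -0.01 and -0.39 in sickle, against 0.09, -0.13 and 0.04 in control. These overlapped, with a group difference of -0.20 (exact two-sided permutation p = 0.2), which was -0.10 without sickle replicate 3. Pfkl minus Pfkm was 0.12, 0.23 and 0.76 in sickle, against -0.06, 0.10 and -0.05 in control. All 3 sickle values lay above the control values, and the group difference of 0.37 had the smallest p that 3 against 3 arrays allow (exact two-sided permutation p = 0.1). Adjusted over the 3 pairs, the exact p-values were 0.8, 0.3 and 0.3. Without sickle replicate 3 the Pfkl minus Pfkm difference was 0.17.

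**Figure D3:**
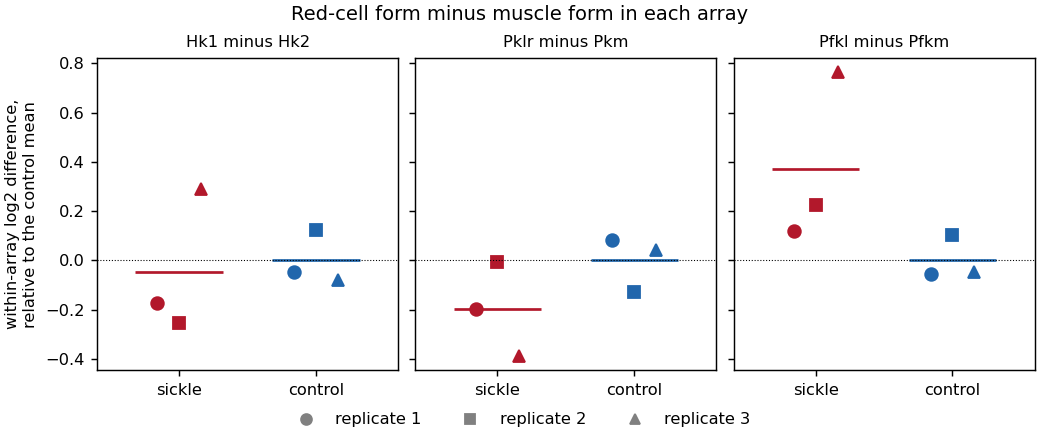
Within-array log2 difference of the red-cell form minus the muscle form, relative to the control mean (vertical axis), for 3 pairs of genes in each sickle and control array, with lines at the group means. In Pfkl minus Pfkm the sickle arrays, from 0.12 to 0.76, lie above the control arrays, while in the other pairs the groups overlap.

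Sickle replicate 3 stood apart from the other arrays, with a score of 43.3 on the first principal component (43.9% of the variance) against -15.1 to -2.31. Relative to the control mean, the median of 8 fibroblast and matrix markers was 0.03, 0.18 and 2.77 in sickle replicates 1, 2 and 3, against -0.09 to 0.12 in the control arrays, and that of 9 macrophage markers 0.04, 0.14 and 1.27, against -0.12 to 0.08. The median of 12 cardiomyocyte markers was 0.05, -0.01 and -0.17 in the same sickle arrays, against -0.01 to 0.01 in control. Of the 9 genes, Hk2, Pfkm, Pklr and Ldha were lower in that array than in every control array (4 of 9), where 36.4% of all genes were. As many, Bpgm, Pfkl, Hk1 and Pgk1, were higher there than in every control array (4 of 9), where 6528 of 21506 genes were. The 3 muscle forms had a median of 0.16, 0.11 and -0.16 in sickle replicates 1, 2 and 3, against -0.10 to 0.10 in control. Within the muscle forms replicate 3 had -0.16 in Hk2, -0.41 in Pfkm and 0.02 in Pkm, and within the red-cell forms 0.13 in Hk1, 0.36 in Pfkl, -0.37 in Pklr and 1.71 in Bpgm, so neither set of forms moved one way in that array. The part of the other cell types in these values was not tested. The Bpgm difference was 1.71 without that array (limma adjusted p = 0.0232).

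**Figure D4:**
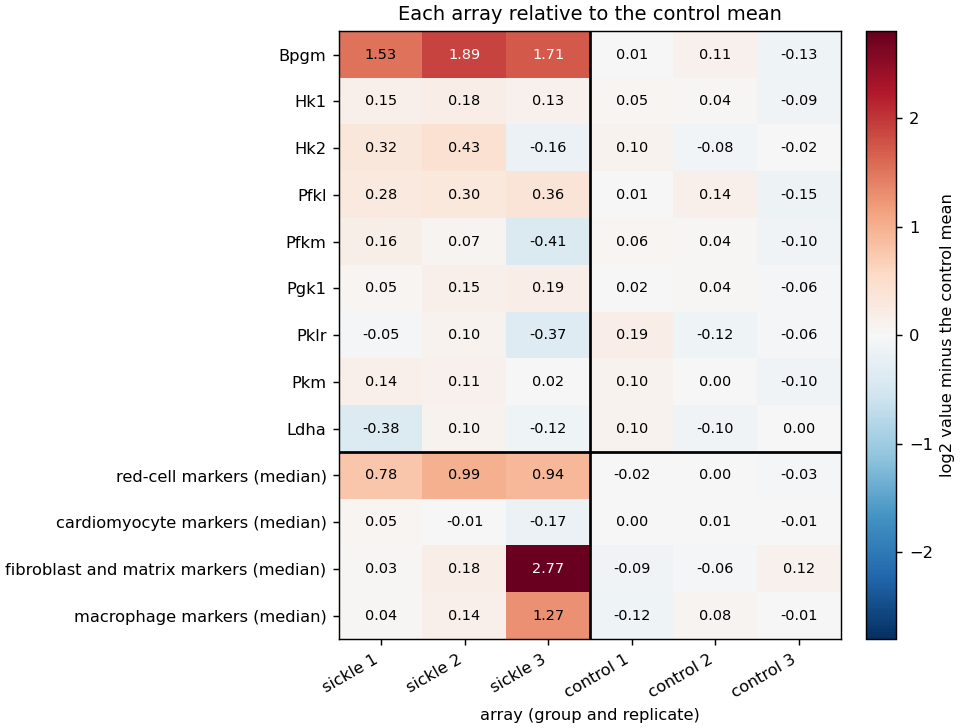
Log2 value minus the control mean (colour and printed number) for the 9 genes and for the medians of 4 marker lists in each sickle and control array. Bpgm and the red-cell markers are high in all 3 sickle arrays, while sickle replicate 3 differs from its mates in Hk2 (-0.16), Pfkm (-0.41) and the fibroblast and matrix markers (2.77).

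No other gene of the pathway lists passed the adjustment. Of 24 listed glycolysis genes, among them the described ones other than Bpgm, 17 were measured, 11 of them higher and 6 lower in sickle, with a median log2 difference of 0.09. Of these 0 passed (limma; 1 had an unadjusted p under 0.05, as did 8.69% of all genes). The number higher was 16 of 17 without sickle replicate 3, 9 without sickle replicate 1 and 10 without control replicate 3. Outside the described genes, the smallest p-values belonged to Pfkp, the platelet subunit of phosphofructokinase (0.26 ± 0.18, SE), and Pgk2, the testis form of phosphoglycerate kinase (0.19 ± 0.13). Pfkp had 9.58, 9.60 and 10.19 in the sickle replicates, against 9.67, 9.43 and 9.49 in the control replicates, and sickle replicate 3 was the 1 sickle array above every control array. The muscle forms at the later steps, Pgam2 and Eno3, differed by 0.03 ± 0.12 and -0.02 ± 0.12, and Ldhb, the lactate dehydrogenase subunit of heart, by -0.14 ± 0.16 (these 3 were named after their values were seen).

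Around Bpgm, 6 genes that make or break down 2,3-bisphosphoglycerate or the phosphofructokinase activator fructose 2,6-bisphosphate were measured, 5 of them higher, and Bpgm was the 1 that passed. Minpp1, a phosphatase that can remove phosphate from 2,3-bisphosphoglycerate, had 7.61, 7.67 and 7.66 in the sickle replicates, against 7.35, 7.57 and 7.50 in the control replicates. These did not overlap, and the log2 difference of 0.17 ± 0.10 (SE) did not pass (limma adjusted p = 0.635). Pfkfb3, which makes fructose 2,6-bisphosphate, differed by 0.24 ± 0.13 (limma adjusted p = 0.629).

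Glucose and lactate carriers were higher in 6 of 6 genes, where 48.4% of all genes were. Their median log2 difference was 0.08, or 0.18 without sickle replicate 3. Of the carriers 0 passed (limma; 1 had an unadjusted p under 0.05, as did 8.69% of all genes). Slc2a1, the glucose transporter GLUT1 of endothelium and, in human, of red cells, had 8.14, 8.32 and 8.55 in the sickle replicates, against 7.78, 8.11 and 7.97 in the control replicates. The groups did not overlap, at 0.39 ± 0.14 (limma adjusted p = 0.522). Slc2a3, the high-affinity transporter GLUT3, differed by 0.36 ± 0.19.

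Of 5 measured pentose phosphate genes, which supply NADPH, 3 were higher and 0 passed (limma). An unadjusted p under 0.05 was found in 1, where 8.69% of all genes had one. The median of the 5 was 0.05. With 1 array left out it lay between -0.0011, without sickle replicate 3, and 0.14, without sickle replicate 1. Taldo1, transaldolase, had 7.68, 7.52 and 7.67 in the sickle replicates, against 7.42, 7.41 and 7.28 in the control replicates, without overlap (log2 difference 0.25 ± 0.10; limma adjusted p = 0.551). Pgd, which makes NADPH, differed by 0.16 ± 0.12.

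Glycogen genes held the lowest differences of the pathway lists. Of 9 measured, 4 were higher and 5 lower with a median of -0.02, and 0 passed (limma). An unadjusted p under 0.05 was found in 2, where 8.69% of all genes had one. Phka1, the muscle regulatory subunit of phosphorylase kinase, had 8.69, 8.85 and 8.67 in the sickle replicates, against 9.02, 9.34 and 9.46 in the control replicates, and Gys1, the muscle glycogen synthase, had 9.97, 9.97 and 9.91, against 10.24, 10.33 and 10.14. In both, all sickle arrays lay below all control arrays, as in 8.36% of all genes. Pgm2, named after its values were seen, went the other way without overlap, as did 7.61% of all genes. It had 7.31, 7.21 and 7.83 in the sickle replicates, against 7.06, 7.16 and 7.13 in the control replicates. The log2 differences were -0.53 ± 0.13 for Phka1 and -0.29 ± 0.09 for Gys1 (limma adjusted p = 0.378 and 0.492).

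**Figure D5:**
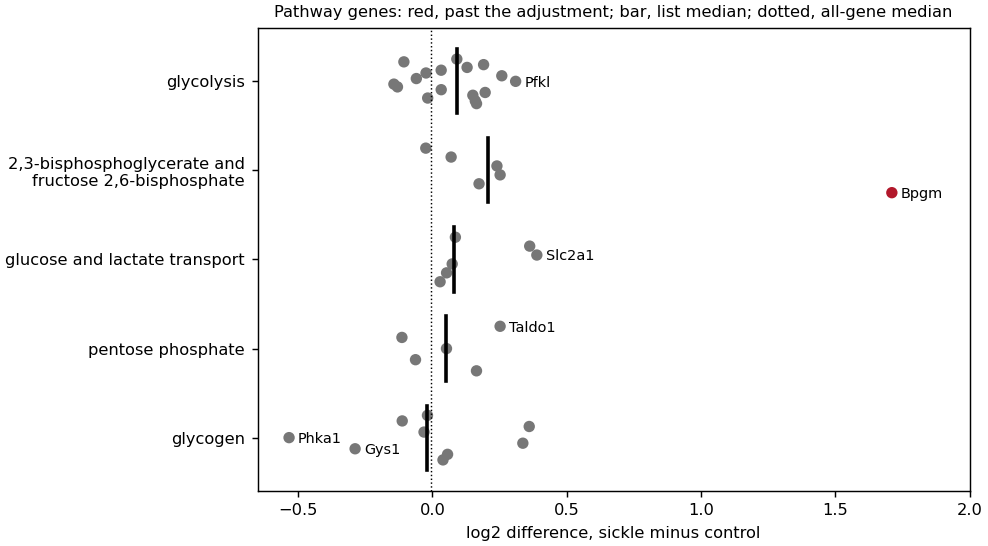
Log2 difference between sickle and control (horizontal axis, sickle minus control) for each measured gene of 5 pathway lists, with bars at the list medians and a dotted line at the median of all genes (-0.01). Bpgm at 1.71 is the 1 gene past the adjustment, and the list medians lie between -0.02 and 0.21.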

How the data were processed

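The deposited log2 values came from RMA, per the submitters' processing notes, which state no version; RMA as such corrects background, normalises by quantiles and summarises probes. That they are log2 was read from the values. Settings, scan dates and batches: not given in the sources used here. Of 25293 rows, 22030 carry 1 gene symbol in the platform annotation, 685 several and 2578 none. For 465 genes with more than 1 such row the brightest was used, leaving 21506 genes, with no filter on dim genes. Sickle and control arrays were compared with limma 3.58.1 in R 4.3.3 (lmFit and eBayes, group as the only term, two-sided; degrees of freedom 4 residual and 3.61 prior), with the Benjamini-Hochberg procedure applied to all 21506 genes and a threshold of 0.05. Each difference is sickle minus control, with its moderated standard error. Pairs of isoforms were compared by exact permutation over the arrays, where 3 against 3 allow no p below 0.1. The limma p-values set a group difference against the spread between these 6 arrays, with variance shared over all genes. The number of arrays limits the precision.

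The genes described, the pathway and marker lists and the tests were chosen with earlier results of these data known. The rule for named genes took the 10, then, not counting the 10, the genes of each pathway list past the adjustment or otherwise the 2 with the smallest p, the 2 with the smallest p of each marker list, and the 5 genes nearest to Bpgm in pattern. Pgam2, Eno3, Ldhb, Pgm2, Sln, Myl7 and red-cell markers beyond 2 were named outside it, after their values were seen. Promoter sequences came from RefSeq (GRCm38.p6), where all 10 genes had an entry. Tested on simulated data of 21506 genes for the sickle comparison, limma called 26 of 67 genes at 1.5-fold, 45 of 67 at 2-fold and 63 of 66 at 4-fold, with 3 false calls. Alternatives were a trended robust variance, leaving out dim genes, 2 normalisations, weighted arrays, the replicate block, other uses of a gene's rows, no shared variance and leaving out each array. Figures were drawn with matplotlib 3.10.9.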

Additional observations from a re-analysis of the deposited data

How the results depend on the processing

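Bpgm kept its direction under all 15 alternatives (log2 difference 1.62 to 1.80, the range over leaving out each array) and its call under 13. It missed the threshold without shared variance (1.71, adjusted p = 0.338 by ordinary least squares, where 0 of all genes and 0 of the 9 passed with 1740 at an unadjusted p under 0.05) and without control replicate 3 (1.65, limma adjusted p = 0.0550). The count of all genes called, 39, was 4 to 36 with 1 array left out, and the count among the 9 was 0 or 1. Whether the replicate numbers pair the arrays is not known. Same-numbered arrays had deviations correlated at 0.11, -0.05 and 0.05, and differently numbered ones at -0.12 to 0.07, which does not settle it. The replicate block left 12 genes called, with Bpgm at an adjusted p of 0.0399 (limma). Of the other 8 genes none was called under any alternative. Pfkm turned to 0.048 with array weights and ranged from -0.17 to 0.11 with 1 array left out, and Pklr from -0.21 to 0.025, both positive without sickle replicate 3. Leaving out 1 array moved the group difference of Hk1 minus Hk2 between -0.21 and 0.059, that of Pklr minus Pkm between -0.29 and -0.10, that of Pfkl minus Pfkm between 0.17 and 0.50, Hk2 between 0.078 and 0.38, Ldha between -0.25 and -0.0059, the number of glycolysis genes higher between 9 and 16, the glycogen and pentose phosphate medians between -0.042 and 0.0075 and between -0.0011 and 0.14, and the median of the glucose and lactate carriers between 0.053 and 0.18; the list medians without single arrays were chosen after seeing the data. The causes of these shifts were not tested, and each fit without 1 array also rests on fewer arrays.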

Other observations

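Marker lists of other cells were measured in the same fit (limma, adjusted over all genes). Of 8 measured lymphocyte markers 8 were higher and 1 passed, Cd79a, a subunit of the B-cell receptor (log2 difference 1.12 ± 0.15, SE; adjusted p = 0.0484), followed by Ms4a1, the B-cell antigen CD20 (0.69 ± 0.12). Of all genes, 48.4% were higher and 0.167% passed higher in sickle. Of 55 members of the other 9 lists, 0 passed and 10 had an unadjusted p under 0.05, where 8.69% of all genes did. Lum and Postn, matrix proteins of fibroblasts, differed by 0.79 ± 0.28 and 1.85 ± 0.74, and Csf1r and Lyz2 of macrophages by 0.63 ± 0.25 and 0.71 ± 0.30. Tcap and Tnni3 of the sarcomere differed by -0.22 ± 0.09 and -0.11 ± 0.10. Vwf and Kdr of endothelium differed by 1.13 ± 0.22 and 0.23 ± 0.11, and Myh11 and Acta2 of smooth muscle by 0.28 ± 0.09 and 0.37 ± 0.12. Adipocyte, skeletal muscle, atrial and liver markers had medians of -0.15, 0.15, -0.35 and -0.12, where Lep differed by -0.22 ± 0.19, Adipoq by -0.15 ± 0.14, Tnnt3 by 0.15 ± 0.11, Mylpf by -0.14 ± 0.10, Nppa by 0.57 ± 0.17, Bmp10 by -0.35 ± 0.15, Alb by -0.12 ± 0.10 and Apoa1 by -0.22 ± 0.20.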
